A study of Mus musculus with 6 samples.

Results

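The genes described here are mouse serpins of clades A, C, D and F, many of which are secreted into blood plasma and made mainly in the liver. They were chosen by gene symbol, as every gene of the count table whose symbol is Serpina, Serpinc, Serpind or Serpinf followed by a number and, in some cases, a letter. Earlier results of these data were known when this rule was set. The rule found 29 of 52323 genes: 6 of the Serpina1 cluster, 11 of the Serpina3 cluster, 8 other genes of clade A, 1 of clade C, 1 of clade D and 2 of clade F. RNA had been sequenced from damaged hepatocytes (dHeps) of AAV-TBG-Cre:Rosa-LSL-tdTomato mice with chronic carbon tetrachloride (CCl4) injury, after 16 days in serum-free Hepatocyte Maintenance Medium with DMSO, 3C or 5C. DMSO is the solvent. The 3C cocktail held CID755673 at 50 µM (an inhibitor of protein kinase D), GSK429286A at 2 µM (an inhibitor of ROCK) and ETC-1002 at 5 µM. The 5C cocktail held these compounds at the same doses with Salidroside at 5 µM and Forskolin at 2 µM, which activates adenylate cyclase. There were 2 libraries per group, all from CCl4-injured animals, so no library shows the uninjured liver. The virus drives Cre from the promoter for thyroxine-binding globulin, which is the product of a gene of this family, Serpina7, and a sort for tdTomato before RNA extraction is not described in the sources used here. The methods call replicates separate biological ones in general, but the labels do not say whether these libraries of a group came from different mice, so p-values measure the spread between these libraries, which may be technical.

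Serpins are protease inhibitors that work as bait. A protease cuts the exposed reactive centre loop near the carboxyl end of the serpin, the serpin snaps into a more stable fold, and the protease is held in a dead complex. Hepatocytes secrete α1-antitrypsin (the Serpina1 genes), antithrombin (Serpinc1), heparin cofactor II (Serpind1) and α2-antiplasmin (Serpinf2), which restrain elastase, clotting proteases and plasmin. A few members have lost inhibition and carry hormones instead, namely thyroxine-binding globulin (Serpina7) and corticosteroid-binding globulin (Serpina6). In mice, the single human genes for α1-antitrypsin and α1-antichymotrypsin correspond to clusters of recent duplicates, Serpina1 and Serpina3, which lie on chromosome 12 with most of clade A.

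How alike the duplicates are decides how far their reads can be told apart. The coding sequences of Serpina1a, Serpina1b, Serpina1c, Serpina1d and Serpina1e are 1239 bases each and pairs of them are 96.3% to 98.5% identical. Among the 5, 6.94% of positions vary, but in the most variable stretch of 60 bases, codons 368 to 387 of 413, 18 positions do. This stretch lies in exon 5 of 5, 26 codons before the end of the coding sequence, in the region that holds the reactive centre loop. It is shown because the coding sequences of these genes differ there at the most positions. Parts outside the coding sequence were not compared in this way. The sequences below are from GRCm39, 5′ to 3′ on the minus strand, and capitals mark the positions that differ among the 5.
Serpina1a: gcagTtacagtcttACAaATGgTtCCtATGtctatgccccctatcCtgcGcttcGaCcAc
Serpina1b: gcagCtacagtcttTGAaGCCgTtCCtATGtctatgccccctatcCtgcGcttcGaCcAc
Serpina1c: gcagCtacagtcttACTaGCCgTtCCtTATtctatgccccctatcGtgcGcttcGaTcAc
Serpina1d: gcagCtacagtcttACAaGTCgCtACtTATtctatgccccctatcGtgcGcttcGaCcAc
Serpina1e: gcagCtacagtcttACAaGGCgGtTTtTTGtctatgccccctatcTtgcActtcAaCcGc
They lie at chr12:103820015-103820074 (Serpina1a), chr12:103694582-103694641 (Serpina1b), chr12:103861352-103861411 (Serpina1c), chr12:103730020-103730079 (Serpina1d) and chr12:103913358-103913417 (Serpina1e).

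The Serpina3 genes have drifted further apart. Over Serpina3c, Serpina3i, Serpina3k, Serpina3m and Serpina3n, 28.3% of aligned coding positions vary. The closest pair, Serpina3k and Serpina3m, is 92.6% identical, with 92 differing bases of 1243 aligned, and Serpina3k and Serpina3n are 83.8% identical. In the most variable stretch of 60 bases, codons 23 to 42 of the 418 of Serpina3n, 33 positions differ. The stretches of 3 genes that the results turn on are shown, 5′ to 3′ on the plus strand of GRCm39, with capitals at the positions that differ among the 5.
Serpina3k: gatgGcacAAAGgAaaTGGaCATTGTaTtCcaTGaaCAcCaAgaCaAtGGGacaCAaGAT
Serpina3m: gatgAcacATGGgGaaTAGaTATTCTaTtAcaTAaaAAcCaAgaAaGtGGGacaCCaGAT
Serpina3n: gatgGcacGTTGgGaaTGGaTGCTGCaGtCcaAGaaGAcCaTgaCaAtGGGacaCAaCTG
They lie at chr12:104306839-104306898 in exon 1 of 4 of Serpina3k, chr12:104355401-104355460 in exon 1 of 4 of Serpina3m and chr12:104374996-104375055 in exon 2 of 5 of Serpina3n.

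Shared reads were gauged by cutting each reference transcript into words of 50 and of 150 bases, the latter the length of a sequenced read, and asking which words also occur in a transcript of another gene. Of the 150-base words, 60.8% of Serpina1c, 40.7% of Serpina1a, 21.8% of Serpina1b, 18.9% of Serpina1d and 8.65% of Serpina1e were shared. Of the 50-base words, 37.6% (Serpina1e) to 80.1% (Serpina1c) were. Among the Serpina3 genes, 0.122% of the 150-base words of Serpina3k and 0.149% of those of Serpina3m were shared, both with each other, and none of Serpina3n, Serpina3c, Serpina3f, Serpina3h or Serpina3i. The exception is Serpina3g, with 53.0% shared with the overlapping pseudogene Gm56487. A long noncoding RNA gene of the same symbol overlaps the exons of Serpina3h on the same strand, and words shared with it were not counted. Outside the clusters, the largest shares were with overlapping neighbours. For Serpinc1, 57.1% of the 150-base words also occur in Zbtb37, for Serpina10, 35.5% occur in Ppp4r4, both on the opposite strand, and for Serpina11, 21.9% occur in the long noncoding RNA Gm28577. Single values of Serpina1a to Serpina1e, Serpina3g, Serpina10, Serpina11 and Serpinc1 are therefore uncertain to that extent, and that of Serpina3h to an extent not measured. Each cluster was also tested as a sum. If every read was counted once, the sum does not depend on how reads were split inside the cluster. If shared reads were dropped or counted more than once, it does. In either case it still depends on reads shared with genes outside the cluster. For the Serpina1 genes these include the pseudogene Gm8893, which holds 21.2% (Serpina1e) to 35.7% (Serpina1c) of their 50-base words and 5.03% or less of their 150-base words. Gm8893 had 4.33 and 4.54 CPM in DMSO, 15.1 and 19.6 in 3C, and 11.1 and 13.1 in 5C, and was called higher in both cocktails.

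**Figure D1:**
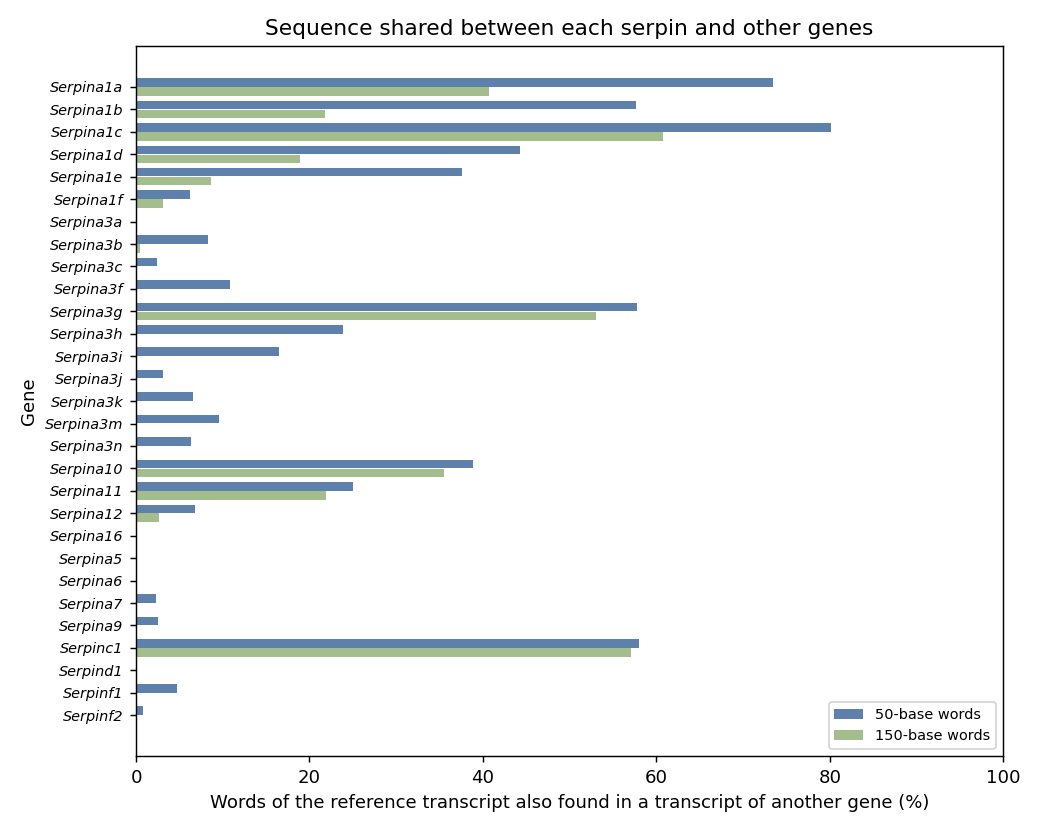
The horizontal axis gives the percentage of words of each gene's reference transcript that also occur in a transcript of a gene with another symbol, for words of 50 bases (blue) and 150 bases (green), and the vertical axis lists the 29 genes. Serpina1c stands highest, at 80.1% and 60.8%, and Serpina3k and Serpina3m stay under 10% for both word lengths.

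Both cocktails were compared with DMSO to ask which serpins are more abundant after treatment, and 5C with 3C to ask what changes when Salidroside and Forskolin are added. Of the 29 genes, 22 had enough counts to be tested. Each gene's level is given as CPM, its estimated count scaled to a common library total, and a gene was called at an adjusted p under 0.05 with an absolute log2 fold change above 1. In 5C, 21 of the 22 were called higher than in DMSO and 0 lower, beside 7.3% of all 19135 tested genes called higher and 4.42% lower. In 3C, 17 were called higher than in DMSO and 0 lower, beside 5.83% and 3.62% of all genes. Set against 3C, 5C had 5 called higher and 0 lower, beside 2.16% and 0.852% of all genes, and the 5 were Serpina3k, Serpina3m, Serpina10, Serpina11 and Serpinc1. In 5C, 21 members had both libraries above both DMSO libraries and 0 had both below, where 30.9% and 32.2% of all genes did. In 3C, 20 did and 0 were below, where 33.6% and 27.7% of all genes did. Between 5C and 3C, 10 had both 5C libraries above both 3C libraries and 4 had both below, where 23.2% and 34.8% of all genes did. Serpina6 and Serpina12 had at most 4 counts in a DMSO library. They entered the test only through the cocktail libraries and could hardly come out lower than DMSO. Serpina6 is 1 of the 21 in both counts for 5C and of the 20 in 3C. With at least 10 counts asked of every library, both drop out. Of the 20 members left, 20 were called higher than DMSO in 5C and 16 in 3C. Of all genes, 12.6% and 10.5% were then called in either direction. The median log2 fold change of the tested serpins was 2.57 in 5C and 2.29 in 3C relative to DMSO, and 0.20 in 5C relative to 3C, where over all tested genes it was 0.0041, 0.0088 and -0.01. Both genes are near the limit of detection. With Serpina6 set at its fold over a floor of 12 counts in DMSO and Serpina12 left out, the members' medians were 2.52, 2.03 and 0.26. Both comparisons with DMSO use the same DMSO libraries, so they are not independent. The count of 5 became 3 without 3C replicate 1, where Serpina3k and Serpina11 lost their calls. The 29 genes together took 511 and 556 CPM in the DMSO libraries, 1938 and 2092 in 3C, and 1943 and 2483 in 5C.

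These are bulk cultures, in which fewer cells of a type and less RNA per cell cannot be told apart. Markers of other cell types moved with the groups. Of 12 macrophage markers, 10 were called lower in each cocktail than in DMSO, and their summed level was 12127 to 13047 CPM in DMSO, 4194 to 4208 in 3C and 2707 to 2811 in 5C. Of 9 hepatocyte markers, 7 were called higher in 5C and 8 in 3C, and their sum was 2327 to 2673 CPM in DMSO, 10525 to 10958 in 3C and 9681 to 14233 in 5C. Stellate and fibroblast markers summed to 8079 to 9409 CPM in DMSO, 7214 to 7317 in 3C and 11794 to 12755 in 5C, with 4 of 12 called higher in 5C and 2 higher and 2 lower in 3C. Mesothelial markers summed to 1041 to 1252, 1378 to 1487 and 2408 to 2503 CPM, with 5 of 7 called higher in 5C and 1 in 3C. Of 7 cholangiocyte markers, 3 were called higher in 5C and 5 in 3C, with sums of 2928 to 3418 CPM in DMSO, 3591 to 3777 in 3C and 2423 to 2728 in 5C. Of 7 tested endothelial markers, 4 were called higher and 2 lower in 5C, and their sum was 353 to 376 CPM in DMSO, 95.3 to 129.7 in 3C and 146 to 223 in 5C. Most of the sum in DMSO was Lyve1, at 309 and 319 CPM, which was called lower in both cocktails, as was Vwf. Cdh5 and Kdr were among those called higher in 5C, Cdh5 from 1.25 and 1.06 CPM in DMSO to 43.3 and 72.2. Neutrophil and T cell markers summed to at most 9.02 CPM in any library. Alb, the albumin gene, was at 1182 CPM or more in every library, DMSO included. The part that these shifts in cell makeup have in the serpin values was not tested.

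The Serpina1 cluster encodes α1-antitrypsin, the main plasma inhibitor of neutrophil elastase. As a sum, it held 213 and 244 CPM in DMSO, 1230.5 and 1377 in 3C, and 922 and 1240.5 in 5C. All cocktail libraries lay above all DMSO libraries, and the 3C and 5C libraries overlapped. In edgeR's quasi-likelihood test the sum rose by 2.48 on the log2 scale in 3C (SE 0.16, adjusted p = 5.03e-05) and by 2.26 in 5C (SE 0.16, adjusted p = 5.63e-05). The difference between 5C and 3C was -0.22, with a 95% interval from -0.58 to 0.15 and an adjusted p of 0.476 from edgeR.

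Serpina1b (chr12:103694413-103796632) was the most abundant of the cluster, at 119 and 127 CPM in DMSO, 569 and 621 in 3C, and 425 and 561 in 5C. Serpina1a had 47.8 and 57.5 CPM in DMSO, 319 and 356 in 3C, and 225 and 325 in 5C. Serpina1c had 33.0 and 41.6 CPM in DMSO, 248 and 285 in 3C, and 196 and 251 in 5C. In each of these genes all cocktail libraries lay above DMSO, and in Serpina1b both 5C libraries lay under both 3C libraries. Serpina1d reached 11.1 and 14.4 CPM in DMSO, 76.4 and 91.9 in 3C, and 62.1 and 83.3 in 5C. Serpina1e was the least abundant, at 2.64 and 3.22 CPM in DMSO, 18.1 and 23.0 in 3C, and 13.5 and 19.6 in 5C. The 5 genes rose together, with log2 fold changes from 2.24 (Serpina1b, SE 0.14) to 2.80 (Serpina1c, SE 0.18) in 3C and from 2.03 (Serpina1b, SE 0.14) to 2.60 (Serpina1c, SE 0.17) in 5C. As these genes share much of their sequence, their values and calls are not independent of each other. For 5C against 3C the values ran from -0.26 (Serpina1e) to -0.16 (Serpina1d), and none passed the test. The sixth gene, Serpina1f, had 0 counts in all libraries.

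Shares within the cluster, given without a test, also differed between DMSO and the cocktails. Serpina1b gave 55.7% and 52.1% of the cluster's counts in DMSO, 46.2% and 45.1% in 3C, and 46.1% and 45.3% in 5C. Serpina1c gave 15.5% and 17.1% in DMSO, 20.2% and 20.7% in 3C, and 21.3% and 20.2% in 5C. The order of the 5 genes did not change in any library. With 60.8% of its read-length words shared, the share of Serpina1c depends on how the authors' counting treated reads that fit more than 1 gene, which is not given in the sources used here.

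Upstream of the start, the 5 genes carry near-identical sequence. In windows of 85 bases aligned on the letters GTTAAT, 75 positions are identical in all 5. The window is shown for the most and the least abundant gene, from RefSeq promoters of GRCm38.p6, 5′ to 3′ on the minus strand, with GTTAAT in capitals.
Serpina1b: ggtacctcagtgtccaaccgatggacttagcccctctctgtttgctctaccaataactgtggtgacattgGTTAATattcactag
Serpina1e: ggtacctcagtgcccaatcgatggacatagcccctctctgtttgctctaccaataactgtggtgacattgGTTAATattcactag
They lie at chr12:103738201-103738285 and chr12:103956961-103957045. GTTAAT begins 26 bases before the annotated start in Serpina1b and 78 bases before it in Serpina1e. Searched on both strands of the 250 bases before the start, GTTAAT was found in 7 of the 23 serpins in the RefSeq table (Serpina1a to Serpina1e, Serpina3c and Serpina7) and in 6.43% of all 32851 promoters. The forkhead letters TGTTTNC, which do not overlap GTTAAT in these windows, were found in 8 of the 23 (Serpina1a to Serpina1e, Serpina3f, Serpina5 and Serpind1) and in 17.8% of all promoters. For both GTTAAT and TGTTTNC, the matches in Serpina1a to Serpina1e lie in near-identical sequence and are not independent of each other. The STAT letters TTCNNNGAA were found in 5 of the 23 (Serpina1f, Serpina3f, Serpina3g, Serpina3i and Serpina11) and in 7.02% of all promoters. A match of letters is a description and not a site of binding. Serpina3h, Serpina3k, Serpina3m, Serpina6, Serpina9 and Serpina10 are not among the promoters used here.

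The Serpina3 cluster, the mouse counterpart of α1-antichymotrypsin, held 155 and 160.2 CPM as a sum in DMSO, 280.5 and 281 in 3C, and 483 and 659 in 5C. The 3 groups did not overlap. In edgeR's test the sum rose by 1.88 on the log2 scale in 5C (SE 0.14, adjusted p = 5.23e-05). In 3C its log2 fold change was 0.80 (SE 0.14, adjusted p = 0.00473), which is under the limit of 1, and it was not called. Relative to 3C, the sum in 5C was called higher by a log2 value of 1.08 (95% interval 0.75 to 1.40, adjusted p = 0.00301). Without 5C replicate 2 this last value was 0.81, past the p limit but not the fold limit.

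Serpina3k (chr12:104303391-104314397), the gene for contrapsin, and its neighbour Serpina3m (chr12:104304745-104361078) had the largest fold changes of the cluster in 5C. Serpina3k had 7.46 and 4.45 CPM in DMSO, 15.7 and 15.9 in 3C, and 135 and 205 in 5C. Its 5C libraries lay far above all others. It rose 29.0-fold in 5C against DMSO (log2 fold change 4.86, SE 0.36, adjusted p = 0.000837) and 11.2-fold against 3C (log2 fold change 3.48, SE 0.33, adjusted p = 0.00552). Its call in 3C against DMSO (log2 fold change 1.38, SE 0.34) was at the limit, with an adjusted p of 0.0474 that became 0.101 with the replicate number as a block and ranged from 0.00202 to 0.1997 over 18 alternatives. Serpina3m had 2.95 and 1.79 CPM in DMSO, 6.13 and 9.07 in 3C, and 33.3 and 51.7 in 5C. It rose 18.2-fold in 5C against DMSO (log2 fold change 4.19, SE 0.37) and 5.80-fold against 3C (log2 fold change 2.54, SE 0.34, adjusted p = 0.00629). Its value in 3C against DMSO was 1.65 (SE 0.35, adjusted p = 0.0189), a call lost without DMSO replicate 2 or 3C replicate 2 (adjusted p = 0.108 and 0.0891). Serpina3k lost its call in 5C against 3C without either 3C library (adjusted p = 0.0764 and 0.0765), at log2 values of 3.47 and 3.49. Of the 50-base words of Serpina3k and Serpina3m, 6.57% and 9.60% are shared with any other gene. In the annotation, the gene models of Serpina3k and Serpina3m overlap.

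Serpina3n (chr12:104372810-104380597), an acute-phase inhibitor that acts on granzyme B and other proteases, was the most abundant gene of the cluster. It had 116 and 117 CPM in DMSO, 173 in each 3C library, and 240.4 and 316 in 5C, with no overlap between groups. It rose by 1.28 on the log2 scale in 5C (SE 0.12, adjusted p = 9.03e-05). The value for 3C against DMSO was 0.54 (SE 0.12, adjusted p = 0.0119) and for 5C against 3C 0.74 (SE 0.12, adjusted p = 0.00554), both under the fold limit. Its part of the cluster's counts was 74.7% and 72.8% in DMSO, 61.7% and 61.4% in 3C, and 49.8% and 47.9% in 5C. That of Serpina3k was 4.803% and 2.77% in DMSO, 5.60% and 5.67% in 3C, and 27.9% and 31.2% in 5C. Serpina3h took 12.1% and 14.5% in DMSO, 20.8% and 20.35% in 3C, and 10.65% and 8.64% in 5C. The cluster's counts thus came mostly from 1 gene in DMSO and from a pair, Serpina3n and Serpina3k, in 5C.

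**Figure D2:**
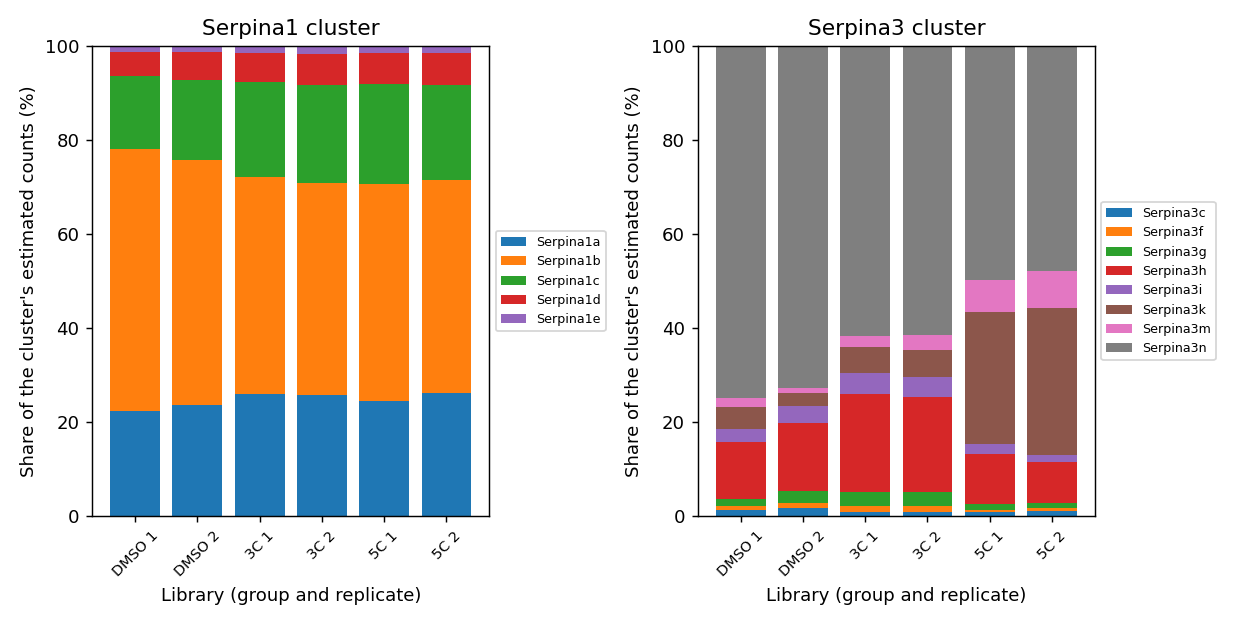
Bars give each gene's share (%) of the estimated counts of its cluster in each of the 6 libraries, for the Serpina1 cluster (left) and the Serpina3 cluster (right), leaving out genes with a mean share of at most 0.5% in every group. Serpina3k goes from 2.77% to 5.67% in the DMSO and 3C libraries to 27.9% and 31.2% in 5C, whereas the Serpina1 shares move by less, such as Serpina1b from 55.7% and 52.1% in DMSO to 45.1% to 46.2% in the cocktails.

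Of the other tested genes of the cluster, 4 rose in both cocktails. Serpina3h, which the annotation lists as a transcribed pseudogene, had 18.7 and 23.2 CPM in DMSO, 58.4 and 57.2 in 3C, and 51.4 and 56.9 in 5C, with log2 fold changes of 1.43 in 3C and 1.39 in 5C (SE 0.12 for both). Serpina3i had 4.23 and 5.75 CPM in DMSO, 12.7 and 12.05 in 3C, and 10.4 and 10.3 in 5C, with 1.28 in 3C and 1.07 in 5C (SE 0.18 for both). Both genes had clear gaps between DMSO and the cocktails. Serpina3g, known from blood cells as an inhibitor of cathepsins, had 2.47 and 4.01 CPM in DMSO, 8.14 and 8.03 in 3C, and 5.85 and 7.22 in 5C, with 1.29 in 3C and 1.03 in 5C (SE 0.26 for both). Serpina3f had 1.07 and 1.61 CPM in DMSO, 3.64 and 3.43 in 3C, and 2.87 and 4.55 in 5C, with 1.36 in 3C and 1.49 in 5C (SE 0.33 for both). For 5C against 3C, these 4 genes had values from -0.25 to 0.12 and none passed the test, with 95% intervals from -0.31 to 0.22 for Serpina3h and from -0.83 to 0.32 for Serpina3g. Serpina3c had another pattern of values. It had 2.22 and 2.84 CPM in DMSO, 2.57 and 2.80 in 3C, and 3.996 and 6.74 in 5C, so its 3C libraries lay within the range of DMSO. Its log2 fold change was 0.05 in 3C (adjusted p = 0.933), 1.11 in 5C (SE 0.31, adjusted p = 0.0250) and 1.05 for 5C against 3C (SE 0.31, adjusted p = 0.0571). Serpina3c was called in 5C against 3C with the replicate number as a block (adjusted p = 0.0496), by DESeq2 (adjusted p = 0.02001), with at least 10 counts asked of every library, with counts divided by 4 and without 5C replicate 1. Serpina3c, Serpina3f and Serpina3g lost their calls in 5C against DMSO without DMSO replicate 1 and without 5C replicate 2, and Serpina3i without DMSO replicate 1. In 3C, Serpina3f lost its call without DMSO replicate 1 or either 3C library and Serpina3g without DMSO replicate 1. On log2(FPKM + 1), where the pseudocount shrinks the folds of low genes, Serpina3f, Serpina3g and Serpina3i lost their calls in both cocktails and Serpina3c in 5C, and on log2(FPKM + 0.1) so did Serpina3i in both and Serpina3c and Serpina3g in 5C. Of the remaining genes of the cluster, Serpina3b had 0 counts, and Serpina3a and Serpina3j had at most 12 and 4 counts in a library, too few to test.

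**Figure D3:**
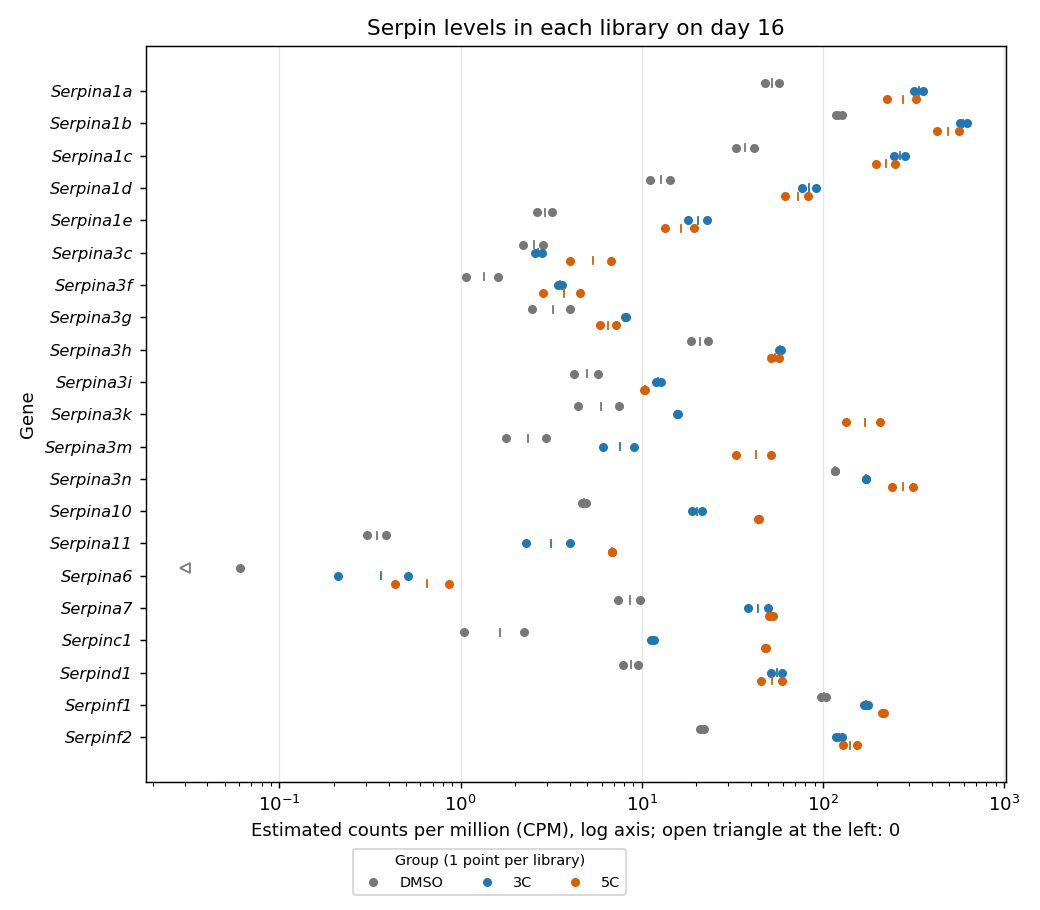
Points give the level of the 21 serpins called in at least 1 comparison in each of the 6 libraries, in CPM on a log axis, coloured by group, short lines give the mean of the 2 libraries, and an open triangle marks a Serpina6 library at 0. Serpina3k is at 4.45 to 15.9 CPM in the DMSO and 3C libraries and at 135 and 205 in 5C, and the 3C and 5C points of the Serpina1 genes lie close together, above DMSO.

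Outside the clusters, clade A holds the hormone carriers and inhibitors with single gene copies. Serpina7 (chrX:137979979-137985992), thyroxine-binding globulin, had 7.39 and 9.74 CPM in DMSO, 49.6 and 38.4 in 3C, and 50.1 and 53.0 in 5C. It rose 5.02-fold in 3C (log2 fold change 2.33, SE 0.17) and 6.09-fold in 5C (log2 fold change 2.61, SE 0.17). The value for 5C against 3C was 0.28, with a 95% interval from -0.08 to 0.64. Its FPKM values, which are scaled by gene length and library size, do not follow its CPM from library to library. They were 2.95 and 3.70 in DMSO, 20.2 and 26.2 in 3C, and 34.6 and 21.9 in 5C, which implies gene lengths of 1450 to 2631 bases in different libraries, a ratio of 1.81. This ratio was 1.65 for Serpina3i, 1.18 for Serpinc1 and at most 1.10 for the other members that could be compared. The 3C and 5C libraries of Serpina7 overlap in FPKM, and in CPM both 5C libraries lie above both 3C libraries.

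Serpina10 (chr12:103580578-103597716), the protein Z-dependent inhibitor of factor Xa, had 4.93 and 4.70 CPM in DMSO, 18.9 and 21.4 in 3C, and 44.5 and 43.7 in 5C. The levels stepped up from DMSO to 3C to 5C with replicates close together. It rose 4.10-fold in 3C (log2 fold change 2.03, SE 0.11), 9.27-fold in 5C (log2 fold change 3.21, SE 0.12) and 2.26-fold from 3C to 5C (log2 fold change 1.18, SE 0.11, adjusted p = 0.000335). Ppp4r4, which overlaps it on the other strand, had 0.774 and 1.06 CPM in DMSO, 1.43 and 1.202 in 3C, and 2.46 and 1.94 in 5C, and was called higher in 5C than in DMSO (log2 fold change 1.27, SE 0.35). Serpina11 had the same order of groups at lower counts, with 0.387 and 0.303 CPM in DMSO, 2.29 and 4.002 in 3C, and 6.86 and 6.83 in 5C. Its log2 fold changes were 3.15 in 3C (SE 0.35), 4.32 in 5C (SE 0.36) and 1.17 for 5C against 3C (SE 0.30, adjusted p = 0.0348), and the last of these lost its call without 3C replicate 1 or either 5C library. Gm28577, which shares sequence with it, had 0 counts in all libraries.

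Serpina6 (chr12:103611821-103623752), corticosteroid-binding globulin, was barely detected, at 0 and 0.0607 CPM in DMSO, 0.211 and 0.513 in 3C, and 0.434 and 0.866 in 5C. The DMSO libraries held 0 and 4 counts, under the floor of 12 counts taken as 3 fragments, so the fold was taken against this floor. It was at least 3.61-fold higher in 5C and at least 2.01-fold higher in 3C, and the test called it in 5C (adjusted p = 0.0264) but not in 3C (adjusted p = 0.0706). The call in 5C was lost without DMSO replicate 1 (adjusted p = 0.0660), without 5C replicate 2 (adjusted p = 0.141) and on log2(FPKM + 1) with no filter, and 3C was called by DESeq2 (adjusted p = 0.0226) and without DMSO replicate 2 (adjusted p = 0.0233). Serpina12, the gene for vaspin, had 12 counts in 3C replicate 2, 13 in 5C replicate 2 and 0 elsewhere, and it was not called in any comparison. Serpina5, the protein C inhibitor, and Serpina9 and Serpina16 had at most 7 counts in a library and were not tested.

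Serpinc1 (chr1:160806146-160833433) encodes antithrombin, the main inhibitor of thrombin and factor Xa. It had 2.23 and 1.05 CPM in DMSO, 11.2 and 11.7 in 3C, and 48.5 and 47.7 in 5C. The groups did not overlap, and the replicates of each cocktail were close together. It rose 6.85-fold in 3C (log2 fold change 2.78, SE 0.28, adjusted p = 0.000423), 29.7-fold in 5C (log2 fold change 4.89, SE 0.30, adjusted p = 2.62e-05) and 4.34-fold from 3C to 5C (log2 fold change 2.12, SE 0.25, adjusted p = 0.00276). Without DMSO replicate 1 the log2 values against DMSO were 3.41 in 3C and 5.53 in 5C, a change of the fold by over 1.5 times, and without DMSO replicate 2 they were 2.35 and 4.46. The library kit does not mark strand, so reads in the part that overlaps Zbtb37 cannot be assigned by strand. Zbtb37 itself had 23.4 and 17.4 CPM in DMSO, 17.1 and 16.1 in 3C, and 14.0 and 14.9 in 5C. Its values were highest in DMSO, where Serpinc1 was lowest, and it was not called in any comparison.

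Serpind1 (chr16:17149235-17161444), heparin cofactor II, which inhibits thrombin, had 7.83 and 9.59 CPM in DMSO, 59.1 and 51.9 in 3C, and 45.6 and 59.8 in 5C. It rose 6.23-fold in 3C and 6.13-fold in 5C (log2 fold changes 2.64 and 2.62, SE 0.17 for both). The difference between 5C and 3C was -0.02, with a 95% interval from -0.38 to 0.33. No other gene shared its 50-base words.

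The clade F genes lie side by side on chromosome 11. Serpinf2 (chr11:75322543-75330987), α2-antiplasmin, the inhibitor of plasmin, had 21.1 and 22.0 CPM in DMSO, 118 and 128 in 3C, and 129.8 and 153 in 5C. It rose 5.58-fold in 3C and 6.66-fold in 5C (log2 fold changes 2.48 and 2.74, SE 0.10 for both), and the value of 0.26 for 5C against 3C (95% interval 0.04 to 0.47, adjusted p = 0.128) did not pass the test. Serpinf1 (chr11:75299998-75322362), pigment epithelium-derived factor, is a serpin without inhibitory activity that connective tissue cells make as well. It had 98.2 and 104 CPM in DMSO, 168 and 178 in 3C, and 212 and 218 in 5C. Its rise was the smaller of the pair, with a log2 fold change of 1.10 in 5C (SE 0.07, adjusted p = 7.11e-06), and in 3C the value was 0.74 (SE 0.07, adjusted p = 0.000100), which is under the fold limit. Serpina3c, Serpina3n, Serpina6, Serpina12 and Serpinf1 were the 5 tested members not called in 3C, and Serpina12 the 1 not called in 5C.

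**Figure D4:**
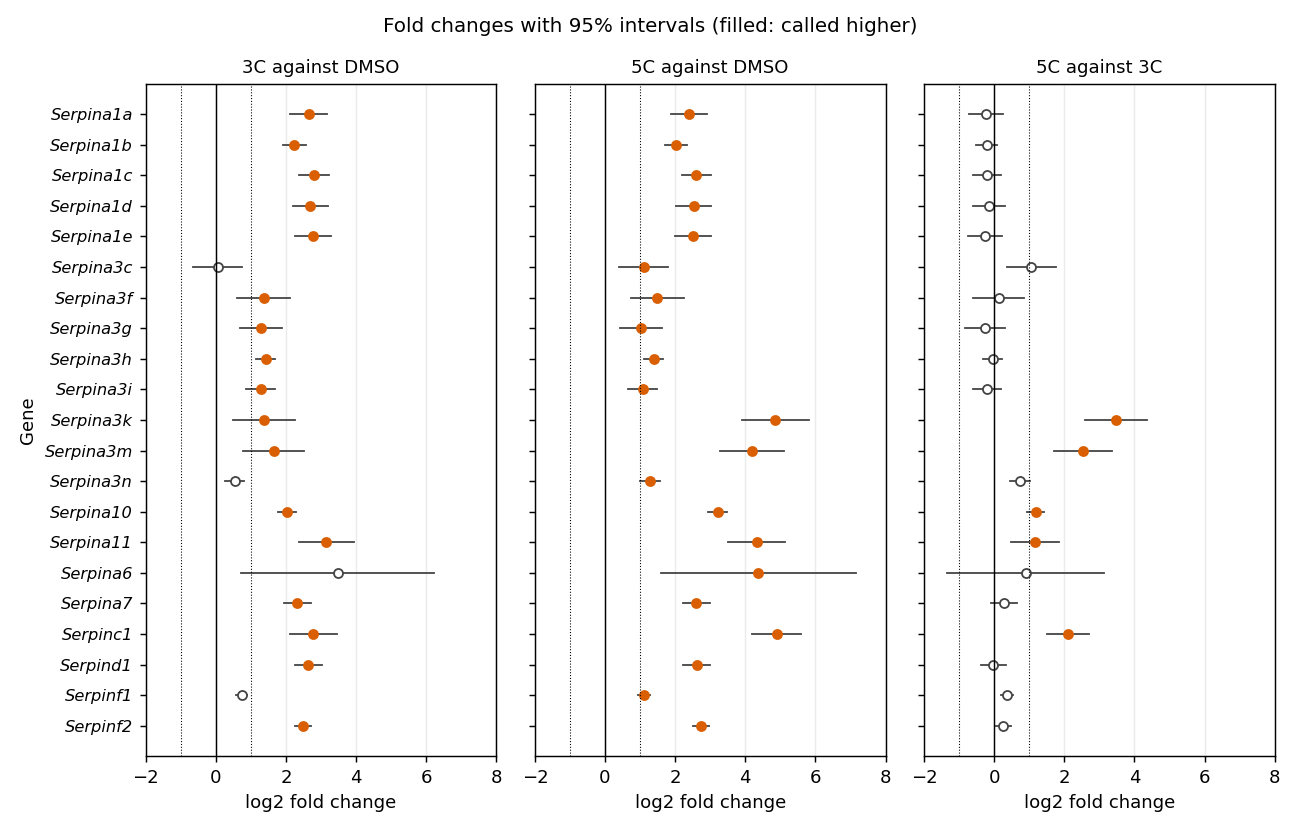
Points give the log2 fold change of 21 serpins with its 95% interval with 1 panel for each of the 3 comparisons, filled where the gene was called higher, with dotted lines at -1 and 1. In the panel for 5C against 3C, 5 genes are filled, from 1.17 (Serpina11) to 3.48 (Serpina3k), and the Serpina1 genes lie from -0.26 to -0.16.

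Levels between genes can be compared per length, in FPKM. In DMSO the mean FPKM was highest for Serpina1b (79.0), followed by Serpina3n (51.2) and Serpinf1 (50.7), whose libraries overlapped, then Serpina1a (33.3) and Serpina1c (24.8). In 3C the order was Serpina1b (378), Serpina1a (217), Serpina1c (175), Serpinf1 (86.8) and Serpina3n (74.9), with no overlap between neighbours. In 5C it was Serpina1b (317), Serpina1a (183), Serpina1c (148), Serpina3n (121) and Serpinf1 (107), and from Serpina1a on each overlapped with the next in this order. Serpina3k went from rank 11 of 29 in DMSO and 12 in 3C to rank 6 in 5C, at a mean of 2.64, 6.88 and 74.3 FPKM. Serpinc1 went from rank 19 in DMSO to 17 in 3C and 15 in 5C, at 0.344, 2.21 and 8.92 FPKM. In 5C, Serpinc1 was at a lower mean than Serpind1 (21.7 FPKM) and Serpinf2 (59.2 FPKM), although its fold change was larger. The FPKM of Serpinc1, with 57.1% of its 150-base words also in Zbtb37, depends on how shared reads were counted, which is not given. That of the Serpina1 genes does as well, so these ranks between genes are uncertain.

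The serpins of clades B, E, G, H and I, most of which act inside cells or in tissue, served as a comparison within the superfamily. Among 23 tested, 5C had 1 called higher and 1 called lower than DMSO, 3C had 2 and 4, and 1 was higher in 5C relative to 3C. Their median log2 fold change was -0.47 in 5C and -0.01 in 3C. Serping1, the C1 inhibitor of plasma, was called higher in both cocktails, with log2 fold changes of 1.59 in 5C (SE 0.10) and 1.16 in 3C (SE 0.10). Serpinh1, a chaperone of collagen, was at 848 and 815 CPM in DMSO, 548 and 597 in 3C, and 1235 and 1265 in 5C, and was higher in 5C relative to 3C (log2 fold change 1.18, SE 0.07). Serpinb9b was called lower in both cocktails, at 25.03 and 33.8 CPM in DMSO and 5.42 to 8.52 in the others, and Serpinb1a in 3C (-1.43, SE 0.27), where its value in 5C was -0.50. Agt, angiotensinogen, is not among these 23. It is a clade A serpin that the rule did not match because of its symbol. Agt was called higher by 1.96 in 5C (SE 0.09) and 2.06 in 3C (SE 0.09). The pseudogene rows Serpina3d-ps, Serpina3l-ps and Serpina4-ps1 had at most 0.173 CPM and Serpina3e-ps at most 1.01 CPM, and none was called.

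The proteases that these serpins act on, many of them also made by hepatocytes, moved in both directions. Among 13 tested, 5C had 7 called higher and 2 lower than DMSO, 3C had 6 and 2, and 2, Plg among them, were higher in 5C relative to 3C. F2, prothrombin, the target of antithrombin and heparin cofactor II, was at 47.7 and 43.5 CPM in DMSO, 259 and 271 in 3C, and 256 and 316 in 5C (log2 values 2.51 and 2.67 against DMSO, SE 0.11 for both). Plg, plasminogen, whose active form is the target of α2-antiplasmin, was at 3.499 and 3.46 CPM in DMSO, 37.4 and 41.4 in 3C, and 129 and 185 in 5C. Plg rose by 2.05 from 3C to 5C on the log2 scale (SE 0.17, adjusted p = 0.000896), and the value of Serpinf2 for that comparison was 0.26. Proc, protein C, was called higher in both (1.56 in 5C and 1.60 in 3C, SE 0.15). F7, factor VII, was called lower in both, by -2.11 in 5C and -1.72 in 3C (SE 0.11). Ctsg, Klk1 and Klk7 had 0 counts in all libraries.

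Of 12 other plasma inhibitors and partners, 10 were called higher in 5C, 11 in 3C and 4 in 5C against 3C, and 0 were lower. They include Itih4, at 65.6 and 62.05 CPM in DMSO, 232 and 276 in 3C, and 543 and 601 in 5C, as well as Ambp, Pzp and Kng1. The 15 genes of the secretory path that folds and exports serpins were called in neither comparison with DMSO, where their median log2 value was 0.005 for 5C and -0.40 for 3C, and 7 and 12 of them had an unadjusted p under 0.05 in edgeR's test. Pdia4, a disulfide isomerase, was higher in 5C relative to 3C (1.02, SE 0.09). Of 6 receptors that clear glycoproteins or serpin complexes, the asialoglycoprotein receptor genes Asgr1 and Asgr2 were called higher in both cocktails, Asgr2 by 3.49 in 5C and 2.98 in 3C (SE 0.25 for both). Asgr1 had 0.298 and 0 CPM in DMSO, 2.05 and 2.77 in 3C, and 16.4 and 19.3 in 5C.

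Liver transcription factors are known to drive many of these genes. Among 12 tested, 5C had 4 called higher and 1 lower than DMSO, 3C had 6 higher and 0 lower, and 1 was lower in 5C relative to 3C. Hnf4a was at 99.2 and 90.3 CPM in DMSO, 259.8 and 247 in 3C, and 198 and 187 in 5C (log2 values against DMSO of 1.39 and 1.04, SE 0.07 for both). Prox1 was called higher in both (1.51 in 3C and 1.19 in 5C). Foxa2 was at 26.2 and 28.6 CPM in DMSO, 33.6 and 27.2 in 3C, and 14.8 and 11.2 in 5C, and was called lower in 5C than in DMSO (-1.06, SE 0.15) and than in 3C (-1.18, SE 0.15). Of 13 genes of STAT3 and glucocorticoid signalling, which induce Serpina3n in inflammation, 0 were called in any comparison by edgeR's test, while 10, 6 and 9 had an unadjusted p under 0.05 for 5C and 3C relative to DMSO and for 5C relative to 3C. Il6st, Fkbp5, Jak1 and Stat3 were the most abundant of them, and they moved in both directions in 5C against DMSO. Stat3 had a log2 fold change of 0.56 (SE 0.07, adjusted p = 0.000280 from edgeR) and Il6st of 0.40 (SE 0.09). Fkbp5 had -0.74 (SE 0.08, adjusted p = 0.000179 from edgeR) and Jak1 -0.16 (SE 0.06). The median of the 13 genes was -0.03. Of 12 interferon-response genes, Cxcl10 was called lower in both cocktails and Oas1a in 5C, and 0 were higher.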

How the data were processed

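The deposited tables held estimated counts per gene and FPKM values, made by the authors from paired-end RNA-seq reads on GRCm39; the submitters' processing notes name featureCounts, Subread and DESeq2. The aligner, the annotation release, the strand setting and the treatment of reads that fit several genes are not given in the sources used here, and the NEBNext Ultra RNA kit does not mark strand. Library totals were 65916573 to 69245895 counts. What 1 count stands for is not given; counts of 4 and 8 were more frequent than their neighbours (4816 entries of 4, 3121 of 3 and 2303 of 5), and a floor of 12 counts, 3 fragments at an assumed 4 counts each, was used. The floor covers counting error only.

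Estimated counts as deposited by the authors are whole numbers and were tested with edgeR 4.0.16 in R 4.3.3 (filterByExpr, TMM, robust quasi-likelihood fit over all 6 libraries by group, Benjamini-Hochberg adjustment over 19135 genes). Each cluster sum was fitted the same way in place of its members. FPKM values deposited by the authors served for levels between genes and, as log2(FPKM + 1) or log2(FPKM + 0.1) with limma 3.58.1, as alternatives, next to DESeq2 1.42.0, other scalings and filters, and leaving out each library. On simulated counts with 200 genes changed by 2 on the log2 scale in 5C against DMSO, 184 to 193 were recovered in 3 runs of 18553 genes, with 4 to 14 false calls. Genes named are all members and, from each other list, at most 4 called genes with the highest mean CPM, or the highest among all tested where none was called. The members and lists were chosen with earlier results of these data known. Shared words were counted with GRCm39 transcripts, and promoters came from RefSeq (GRCm38.p6). Deviations of same-numbered libraries from their group means correlated at -0.05, 0.02 and 0.07. Such values cannot show whether same-numbered libraries came from the same animal or preparation, and the labels do not say. Results for 2 further genes are not reported here.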

Additional observations from a re-analysis of the deposited data

How the results depend on the processing

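Over 18 alternatives, 16 to 21 members were called in 5C against DMSO, 12 to 19 in 3C against DMSO and 3 to 7 in 5C against 3C. For 5C against 3C the count was 3 on log2(FPKM + 1) with no filter, and 3 to 5 when each library was left out. With the replicate number as a block, the counts were 21, 16 and 6. The Serpina3 sum in 3C against DMSO, 0.80, was called where no limit on the fold change was set. In 5C against 3C this sum was 0.94 on log2(FPKM + 1), with and without the filter, and on log2(FPKM + 0.1), under the fold limit and, with no filter, also short of the p limit (adjusted p = 0.0666), and 0.81 to 1.29 with 1 library left out. Values with no call that changed sign when a library was left out ranged, in 5C against 3C, from -0.55 to 0.0072 for Serpina1a, -0.41 to 0.045 for Serpina1d, -0.27 to 0.42 for Serpina3f, -0.14 to 0.038 for Serpina3h and -0.25 to 0.17 for Serpind1, and in 3C against DMSO from -0.13 to 0.26 for Serpina3c. The cause was not tested. Of 1122 values of 63 member results, 1052 kept direction and side of the threshold, 51 lost a call, 11 gained one and 8 changed sign. With 2 libraries a group, an arm with 1 library left is assumed to vary like the others.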
